A study of Mus musculus with 8 samples.

Results

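Immediate early response genes are the first genes that a cell transcribes after a growth signal, without new protein synthesis. The 10 described here were named individually: Egr1, Egr2, Fos, Fosl1, Jun, Junb, Jund, Ier2, Ier3 and Atf3, out of 22963 genes with a RefSeq transcript row in the deposited tables. Their levels were read in mouse embryonic stem cells of the male line Bruce 4 (strain background C57BL6/J, wild type), grown for 2 weeks in 1 of 4 conditions and then lysed for bulk RNA sequencing. The conditions were LN511 coating with 2i medium, LN511 coating with Std medium, gelatin coating with 2i medium and gelatin coating with Std medium, with 2 libraries each and 8 in all. LN511 is laminin-511, a basement membrane protein that binds integrins. Gelatin is the usual coating for these cells. The composition of Std medium is not given in the labels. The name 2i stands for a medium with inhibitors of MEK, the kinase that activates ERK, and of GSK3. All 4 groups are the same cell line, so nothing here separates a line effect from a general one. The design text calls the libraries biological replicates. No source says whether they came from separate cultures, so p-values measure the spread between these libraries.

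As background, growth factors such as FGF4, which embryonic stem cells secrete themselves, activate RAS and, further down, MEK and ERK. ERK and its target kinases phosphorylate transcription factors such as ELK1, a partner of SRF, and CREB, which sit on the promoters of immediate early genes and switch them on within minutes. The products are mostly transcription factors. EGR1 and EGR2 are zinc finger factors. FOS and FOSL1 pair with JUN, JUNB or JUND to form AP-1, and ATF3 is a related leucine zipper protein induced by stress. IER2 and IER3 are small proteins of the same early wave.

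The libraries were shallow. Low FPKM values (fragments per kilobase of transcript, scaled to the size of the library) fell on regular steps, which put the depths at an estimated 2240000 to 2660000 fragments, within 1.19-fold of each other. On a transcript of 2000 bases, 1 fragment was then worth 0.19 to 0.22 FPKM. The summed level of all 10 embryonic stem cell markers was 2446 to 2920 FPKM over the libraries, but single markers differed between media. Nanog had 550 and 614 FPKM in LN511 2i, against 48.4 and 43.2 FPKM in LN511 Std. On gelatin it had 446 and 455 FPKM in 2i, against 56.7 and 53.1 FPKM in Std. Klf4, Zfp42, Esrrb, Sox2 and Sall4 were also higher in 2i on both coatings, while Utf1 and Tdgf1 were lower. The 8 fibroblast markers summed to 1.54 to 1.99 FPKM in LN511 2i, 3.54 to 3.87 in LN511 Std, 2.18 to 2.19 in gelatin 2i and 4.36 to 5.57 in gelatin Std, with Postn and Lum at 0 throughout. The 7 primitive endoderm markers summed to 1.12 to 2.65 FPKM in LN511 2i, 4.33 to 4.54 in LN511 Std, 0.87 to 2.00 in gelatin 2i and 1.38 to 2.05 in gelatin Std. The 5 neuroectoderm markers summed to 24.5 to 27.4 FPKM in LN511 2i, 33.9 to 43.7 in LN511 Std, 22.4 to 26.4 in gelatin 2i and 20 to 24.8 in gelatin Std. The 7 trophoblast markers summed to 16.4 to 18.5 FPKM in LN511 2i, 23.4 to 27.6 in LN511 Std, 28.9 to 29.3 in gelatin 2i and 10.1 to 13.4 in gelatin Std. The fibroblast sum was higher in Std than in 2i on both coatings, as Egr1 was, and its members went both ways. Thy1 had 0.51 and 0.26 FPKM in LN511 2i, against 2.19 and 2.04 FPKM in LN511 Std, and 0.48 and 0.23 FPKM in gelatin 2i, against 4.45 and 3.54 FPKM in gelatin Std. Pdgfrb was higher in 2i, with 0.90 and 1.29 FPKM in LN511 2i, against 0.20 and 0.49 FPKM in LN511 Std, and 1.38 and 1.73 FPKM in gelatin 2i, against 0 and 0 FPKM in gelatin Std. The neuroectoderm and primitive endoderm sums were highest in LN511 Std, as Egr1, Fos, Jun and Junb were, but not all of their markers were. Nes had 10.9 and 20.2 FPKM in LN511 Std, against 9.37 and 9.65 FPKM in gelatin Std, and was lower in 2i. Sox1 went the other way, higher in 2i on both coatings. Tubb3 overlapped between LN511 Std and gelatin 2i, and Neurog2 was at 0 throughout. No primitive endoderm marker exceeded 1.93 FPKM in any library, and Foxa2 was at 0 in LN511 Std. The part of these markers in the results was not tested.

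The promoters of 4 members that were lower in 2i on LN511 are shown to let their control elements be seen. They are the 250 bases before the RefSeq start (build GRCm38.p6, the assembly that mm10 names), written 5′ to 3′ on the strand of the gene. Capitals mark every match to the cyclic AMP response element core TGACG, the ATF and Jun site TGANNTCA and the AP-1 site TGANTCA, each on both strands. They also mark the TATA box TATAAA on the gene's strand and the CArG box of SRF, which had no match in these 4. Elements more than 250 bases before the start lie outside these windows and were not searched.
Fos promoter (chr12:85473640-85473889, plus strand): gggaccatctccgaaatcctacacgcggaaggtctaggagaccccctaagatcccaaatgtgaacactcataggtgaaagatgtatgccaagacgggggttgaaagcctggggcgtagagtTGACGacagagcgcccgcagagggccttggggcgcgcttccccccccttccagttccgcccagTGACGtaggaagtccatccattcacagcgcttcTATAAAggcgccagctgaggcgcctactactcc
Jun promoter (chr4:95052223-95052472, minus strand): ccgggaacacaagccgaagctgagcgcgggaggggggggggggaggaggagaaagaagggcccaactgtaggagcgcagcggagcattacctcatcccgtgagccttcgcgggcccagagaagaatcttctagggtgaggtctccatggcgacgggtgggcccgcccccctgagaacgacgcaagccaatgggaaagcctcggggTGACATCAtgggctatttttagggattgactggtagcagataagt
Junb promoter (chr8:84978749-84978998, minus strand): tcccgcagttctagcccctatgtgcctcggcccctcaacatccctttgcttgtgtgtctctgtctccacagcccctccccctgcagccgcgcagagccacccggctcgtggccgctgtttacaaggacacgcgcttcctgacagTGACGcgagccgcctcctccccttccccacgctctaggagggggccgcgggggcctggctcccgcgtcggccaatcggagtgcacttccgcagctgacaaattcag
Ier3 promoter (chr17:35821463-35821712, plus strand): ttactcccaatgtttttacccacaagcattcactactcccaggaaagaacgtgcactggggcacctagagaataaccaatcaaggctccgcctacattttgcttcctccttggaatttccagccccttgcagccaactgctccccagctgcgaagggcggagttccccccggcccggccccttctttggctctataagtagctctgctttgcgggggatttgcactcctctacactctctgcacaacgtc

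The Fos window held 2 matches to TGACG, beginning 129 and 66 bases before the start, and a TATA box at 33 bases. The Jun window held TGACATCA, a match to TGANNTCA, 45 bases before the start. The Junb window held TGACG once, at 106 bases, and the Ier3 window held none of the marked motifs. The promoter table had entries for 7 of the 10 members. It had none for Egr1, Fosl1 and Ier2, so these were not searched for any motif. Among the 3 members that were searched but are not shown, Jund had TGAAATCA at 61 bases and Atf3 had TGACG on the other strand at 7 bases. The third, Egr2, with 5 annotated starts, was the member of the 7 searched whose windows matched the CArG box, in 4 of 5. The ETS site CCGGAAG (6.9% of all windows) and the EGR site GCGNGGGCG (4.7%) were also searched and had no match in these members. Egr2 windows 3, 4 and 5 overlap and share the same site, CCATATATGG, so these matches are not separate. Window 2 held CCTTTTTTGG. Windows 3, 4 and 5 also held TGACG on both strands. Of 32851 promoter windows of the same length, 17.8% held TGACG, 11.9% TGANNTCA, 6.7% TGANTCA, 7.6% the TATA box and 1.5% the CArG box. TGANNTCA also covers the full element TGACGTCA, which 1.5% of windows held.

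The 10 genes spanned a wide range of levels. Ier2 was highest, at 68.3 to 82.3 FPKM over the 8 libraries, followed by Jund at 20.2 to 33.9 FPKM. Ier3 lay between 5.58 and 27.5 FPKM, Junb between 4.55 and 20.8, Jun between 1.57 and 9.58, Atf3 between 1.46 and 5.62 and Fos between 0.41 and 2.70. Egr1 ran from 0 to 18.2 FPKM, and Egr2 and Fosl1 were at 0 in nearly all libraries. By the depth estimate, Ier2 rested on 233.4 to 315.6 fragments a library and Fos on 2.1 to 14.8, so the Fos values are coarse.

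**Figure D1:**
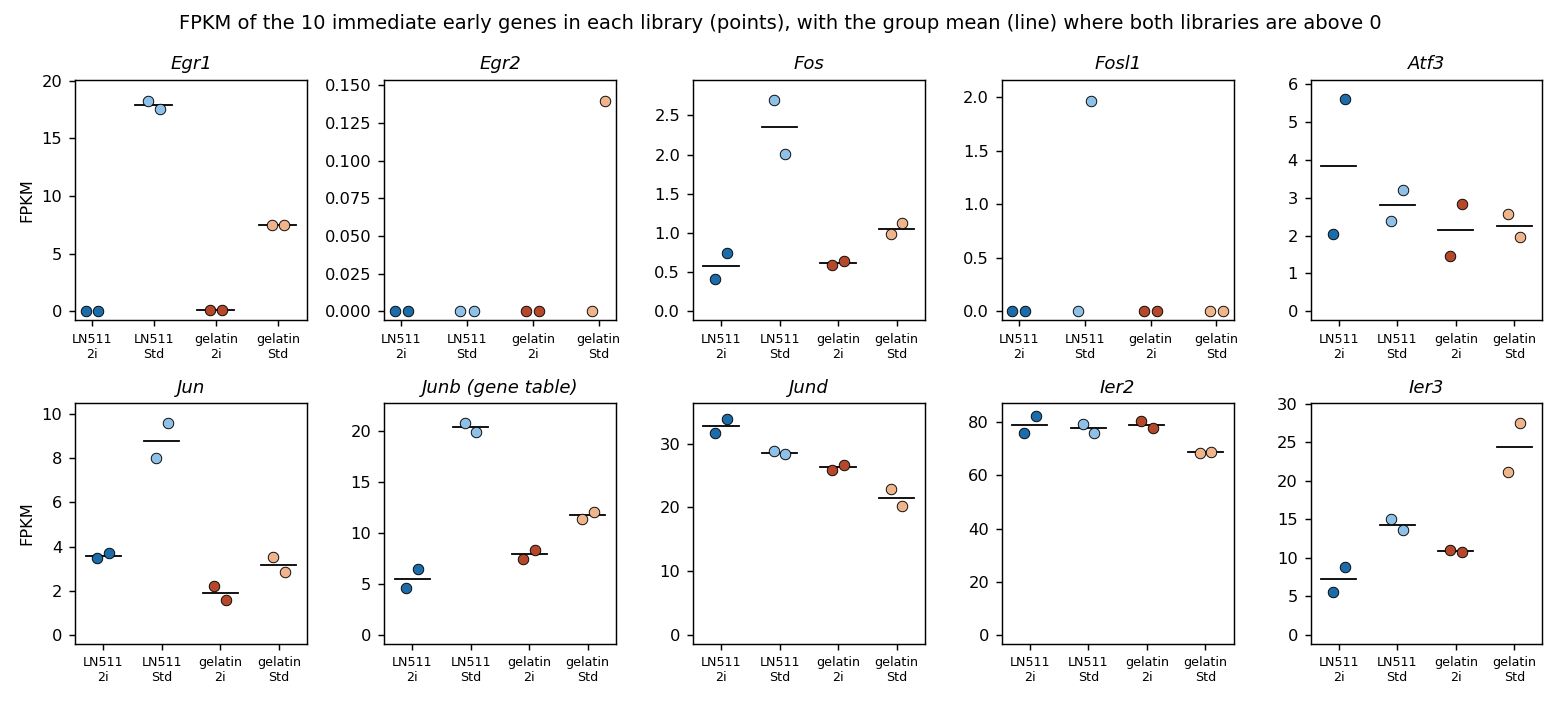
Each panel gives the FPKM (y axis, linear, own scale for each gene) of 1 immediate early gene in both libraries of each group; points are libraries and lines are group means, drawn where both libraries are above 0. Egr1 lies at 17.5 and 18.2 FPKM in LN511 Std and at or near 0 in the 2i libraries, while Ier2 stays between 68.3 and 82.3 FPKM throughout.

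Egr1, the zinc finger factor that is a standard readout of ERK activity, was the member with the largest difference between media. On LN511 it was listed at 0 and 0 FPKM in the 2i libraries, against 18.2 and 17.5 FPKM in the Std libraries. On gelatin it had 0.13 and 0.12 FPKM in 2i, against 7.52 and 7.45 FPKM in Std. The media did not overlap on either coating, and the values near 0 on gelatin correspond to an estimated 1.0 fragment in each library. An exact 0 in these files can be a failed estimate, and the near-0 values of the gelatin 2i libraries are the measured levels closest to it. Egr1 fell in 2i on gelatin, with a difference of -2.92 on the log2(FPKM + 1) scale (SE 0.23, limma adjusted p = 0.000627). That scale understates the change of low genes: with a pseudocount of 0.1 the difference was -5.08. On LN511 it also passed (limma adjusted p = 0.00015), but that p rests on the listed zeros, so it adds nothing to the values above, and no fold change is given against a group listed at 0. Egr1 passed the filter on low values through its Std libraries alone. The call on gelatin held when any 1 library was left out, with a difference of -2.92 to -2.91. Its SE is shared by all 4 groups, so it also draws on the listed zeros of LN511 2i, which show no spread. On LN511 leaving out 1 library keeps a listed 0 in 2i, so it adds no support for that call. In bulk RNA, fewer cells that express a gene and less RNA per cell cannot be told apart. The deposited gene table lists Egr1 at 0 in both gelatin Std libraries, and the fit to that table gave 0.17 on gelatin (limma adjusted p = 0.538).

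Egr1 was also higher on LN511 than on gelatin in Std medium in both libraries. The difference was 1.15 on the log2 scale (SE 0.23), larger than in 96.4% of all genes tested, but it did not pass (limma adjusted p = 0.0579). In 2i, LN511 was listed at 0 and gelatin at about 1 fragment, which is too little to compare.

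Egr2, the relative of Egr1 known from hindbrain and Schwann cell development, was listed at 0 in 7 of 8 libraries. The exception, 1 gelatin Std library, had 0.14 FPKM, an estimated 1.0 fragment. Fosl1, which encodes the FOS relative FRA1, was listed at 0 in 7 libraries and at 1.96 FPKM, an estimated 9.7 fragments, in LN511 Std replicate 2. Its own replicate was at 0, so that value has no support from a second library. Fosl1 also overlaps Ccdc85b on the other strand, and no source used here says whether counting used strand. Neither gene passed the filter of at least 1 FPKM in at least 2 libraries and so neither entered the fit reported here. In a fit with no filter neither passed in any comparison (limma adjusted p of 0.349 or more).

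Fos, which encodes the dimer partner of JUN in AP-1, was low everywhere. It had 0.41 and 0.74 FPKM in LN511 2i, against 2.70 and 2.01 FPKM in LN511 Std. Cells on gelatin had 0.59 and 0.64 FPKM in 2i, against 0.98 and 1.12 FPKM in Std. The media did not overlap on either coating, and LN511 Std stood above the other 3 groups. Fos fell in 2i on LN511 (log2 -1.09, SE 0.26, limma adjusted p = 0.0317), having passed the filter through Std libraries alone (0.0315 with no filter), while on gelatin the difference of -0.34 (SE 0.26) did not pass (limma adjusted p = 0.437). The call on LN511 was lost without LN511 2i replicate 1 (limma adjusted p = 0.107) or 2 (0.0591), LN511 Std replicate 1 (0.126) or 2 (0.069), or gelatin 2i replicate 1 (0.0506) or 2 (0.0503), and with a pseudocount of 0.1 (0.0552).

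Jun, the core AP-1 subunit, had 3.46 and 3.73 FPKM in LN511 2i, against 8 and 9.58 FPKM in LN511 Std. The gelatin libraries had 2.23 and 1.57 FPKM in 2i, against 3.51 and 2.84 FPKM in Std. LN511 Std was again the highest group, and LN511 2i overlapped gelatin Std. Jun fell in 2i on LN511 (log2 -1.09, SE 0.25, limma adjusted p = 0.0279). On gelatin the difference was -0.53 (SE 0.25, limma adjusted p = 0.212). The call on LN511 was lost without LN511 2i replicate 1 (0.0863) or 2 (0.0767) or LN511 Std replicate 1 (0.0804) or 2 (0.129). Jun has a single exon that overlaps the antisense gene Junos, whose reads cannot be told apart without strand.

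Junb, an AP-1 subunit that can also restrain JUN, has no RefSeq row in the transcript table, and its values come from the deposited gene table, where it is above 0 in all 8 libraries. It had 4.55 and 6.46 FPKM in LN511 2i, against 20.8 and 19.9 FPKM in LN511 Std. On gelatin the level was 7.48 and 8.31 FPKM in 2i, against 11.4 and 12.1 FPKM in Std. The 4 groups did not overlap: LN511 Std was highest and LN511 2i lowest, with both gelatin groups between. Junb was tested in a fit of 10561 genes, added after the data were seen, to which genes with rows in the gene table alone were joined. There 19.2% of genes passed on LN511 and 16.1% on gelatin. Junb fell in 2i on LN511 (log2 -1.73, SE 0.20, limma adjusted p = 0.00217), and this held when any 1 library was left out (limma adjusted p up to 0.0225). On gelatin the difference of -0.52 (SE 0.20) did not pass (limma adjusted p = 0.135). The difference between these medium effects was -1.21 (SE 0.28) and did not pass either (limma adjusted p = 0.143; 0.928% of genes passed).

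Jund, the AP-1 subunit known for steady expression, went the other way in both media comparisons without passing. It had 31.6 and 33.9 FPKM in LN511 2i, against 28.8 and 28.3 FPKM in LN511 Std. On gelatin it had 25.8 and 26.7 FPKM in 2i, against 22.8 and 20.2 FPKM in Std. Values in 2i lay above Std on each coating, and values on LN511 lay above gelatin in each medium, with no overlap. Without overlap, 28.8% of all genes were higher on LN511 than on gelatin in Std. That share was not counted for the other comparisons, neither here nor for the other members. The 2i difference was 0.19 on LN511 (95% interval -0.09 to 0.47, limma adjusted p = 0.312) and 0.28 on gelatin (95% interval -0.0026 to 0.56, limma adjusted p = 0.168). Jund also has a single exon with an antisense gene, Gm11175, across it.

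Ier2, a nuclear protein of the early response, was the most even member. It had 76 and 82.3 FPKM in LN511 2i, against 79.5 and 76 FPKM in LN511 Std. Cells on gelatin had 80.6 and 77.7 FPKM in 2i, against 68.3 and 69 FPKM in Std. The LN511 groups and gelatin 2i overlapped, and gelatin Std lay below them. The 2i difference was 0.02 on LN511 (95% interval -0.17 to 0.22) and 0.20 on gelatin (95% interval 0.0029 to 0.40, limma adjusted p = 0.159).

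Ier3, which encodes a protein that affects cell survival and ERK signalling, was lower in 2i on both coatings. It had 5.58 and 8.87 FPKM in LN511 2i, against 15.1 and 13.6 FPKM in LN511 Std. The gelatin libraries had 11 and 10.7 FPKM in 2i, against 21.2 and 27.5 FPKM in Std. Gelatin Std was the highest group, so its order of groups differed from that of Egr1, Fos, Jun and Junb, in which LN511 Std was highest. Ier3 fell in 2i on gelatin (log2 -1.09, SE 0.24, limma adjusted p = 0.0269) and on LN511 (log2 -0.93, SE 0.24, limma adjusted p = 0.0389). The gelatin call was lost without LN511 Std replicate 1 (0.0506) or 2 (0.0502), gelatin 2i replicate 1 (0.104) or 2 (0.109), or gelatin Std replicate 1 (0.0584) or 2 (0.128). The LN511 call was lost without every single library except LN511 2i replicate 2. Those were LN511 2i replicate 1 (0.118), LN511 Std replicate 1 (0.158) or 2 (0.114), gelatin 2i replicate 1 (0.0665) or 2 (0.0667), and gelatin Std replicate 1 (0.0529) or 2 (0.0537).

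Atf3, the stress-induced repressor and activator, did not separate the groups. It had 2.05 and 5.62 FPKM in LN511 2i, against 2.39 and 3.22 FPKM in LN511 Std. On gelatin the level was 1.46 and 2.85 FPKM in 2i, against 2.56 and 1.96 FPKM in Std. The media overlapped on both coatings, on an estimated 7.2 to 25.9 fragments a library. The 2i difference was 0.25 on LN511 (95% interval -0.79 to 1.29) and -0.08 on gelatin (95% interval -1.11 to 0.96).

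**Figure D2:**
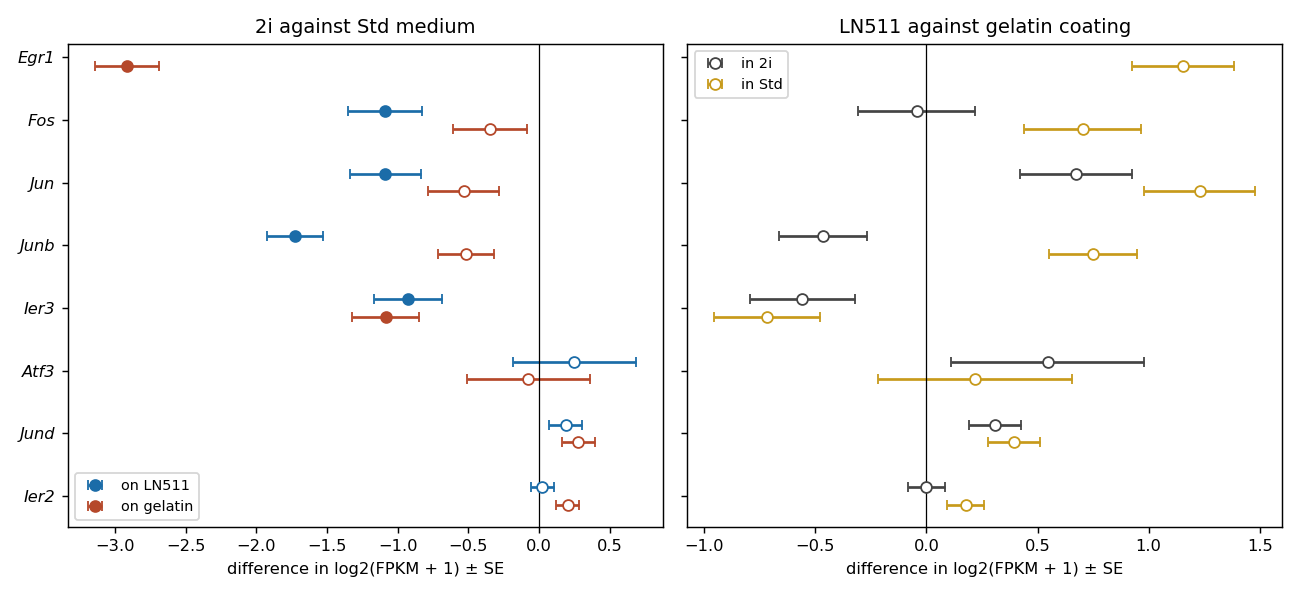
Differences in log2(FPKM + 1) with SE (x axis) for the 8 members tested (rows), for 2i against Std on each coating (left) and LN511 against gelatin in each medium (right); filled points passed limma at an adjusted p under 0.05 and open points did not. Egr1 is left out of comparisons with LN511 2i, where it is listed at 0; Junb comes from the fit with gene table rows added. Fos, Jun and Junb lie further from 0 on LN511 than on gelatin in the left panel, and no point is filled in the right panel.

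Counted together for 2i against Std on LN511, 4 of the 7 members tested on transcript sums fell (Egr1, Fos, Jun and Ier3) and none rose. Among all 10408 genes tested, 10.2% fell and 8.95% rose in that comparison, 19.2% together. On gelatin 2 of 7 fell (Egr1 and Ier3) and none rose, where 7.52% of all genes fell and 8.58% rose, 16.1% together. The median difference of the 7 was -0.93 on LN511 and -0.34 on gelatin, and that of all genes was -0.04 on LN511 and 0 on gelatin. Egr1 passed the filter through its Std libraries alone, and Fos through 3 Std libraries, so such a member had to differ, and these counts are a description of the 7. The count on LN511 dropped to 1 without LN511 2i replicate 1 or either LN511 Std library, to 2 without LN511 2i replicate 2 or either library of gelatin 2i, and to 3 without either library of gelatin Std. Egr1 was the member that passed in all of these, a call that rests on the listed zeros of LN511 2i. On gelatin the count dropped to 1, Egr1, when any 1 library of gelatin Std, gelatin 2i or LN511 Std was left out.

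**Figure D3:**
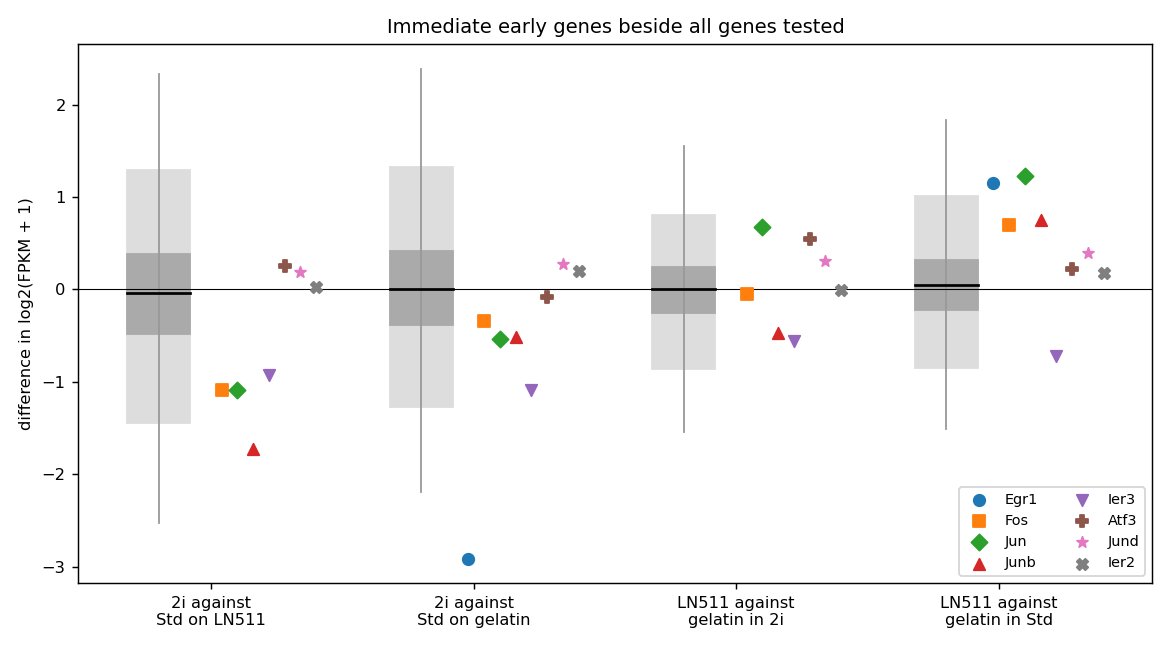
Differences in log2(FPKM + 1) (y axis) of the 8 tested members (symbols) beside those of all genes tested (grey: dark box 25th to 75th percentile, light box 5th to 95th, line 1st to 99th, black bar the median) for 4 comparisons. Egr1 on gelatin, at -2.92, lies below the 1st percentile of all genes; it is not drawn for the comparisons with LN511 2i, where it is listed at 0.

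For LN511 against gelatin, none of the 7 members passed in either medium by limma, where 2.55% of all genes passed in Std and 0.653% in 2i. At an unadjusted p under 0.05, Egr1, Fos, Jun, Jund and Ier3 would count in Std (unadjusted p from 0.00168 to 0.033), and Jun and Jund in 2i. So would Junb in Std, in its own fit (limma unadjusted p = 0.00754). The share of all genes under that unadjusted threshold was not counted, so these only describe the members. In Std medium, 5 of the 7 were higher on LN511 with no overlap (Egr1, Fos, Jun, Jund and Ier2) and Ier3 was lower, where 28.8% of all genes were higher without overlap and 20.7% were lower. Jun differed by 1.23 (SE 0.25, limma adjusted p = 0.0618), Junb by 0.75 (SE 0.20, limma adjusted p = 0.128, in the fit where 2.61% of genes passed) and Ier3 by -0.72 (SE 0.24, limma adjusted p = 0.209). In 2i medium Jun differed by 0.67 (SE 0.25, limma adjusted p = 0.345), and Ier3 by -0.56 (SE 0.24, limma adjusted p = 0.409). Junb differed by -0.47 in 2i (SE 0.20, limma adjusted p = 0.409, in the fit where 0.72% of genes passed). In the fit to the deposited gene table, 394 of 3139 genes passed in Std, a larger share than the 2.55% above. Jun (limma adjusted p = 0.00676), Jund (0.0229) and Junb (0.032) passed there with the same differences. Egr1 passed against gelatin Std libraries that the table lists at 0. The coating and medium comparisons share libraries, so their values are not independent of each other.

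Whether the medium effect differed between the coatings was tested by the interaction, in which 0.682% of all genes passed. None of the 7 members did by limma at an adjusted p under 0.05, nor did Junb. At an unadjusted p under 0.05 there was 1 of the 7, Egr1, whose interaction rests on the zeros of LN511 2i and is not given as a size. Junb, which is above 0 in all libraries, was also under it in its own fit (limma unadjusted p = 0.00383). The share of all genes under that unadjusted threshold was not counted. In the fit to the deposited gene table, 448 of 3139 genes passed, a larger share than the 0.682% above. Junb (-1.21, limma adjusted p = 0.0175) and Egr1 were among them, the second with gelatin Std also listed at 0. For Fos the difference was -0.75 (SE 0.37, limma adjusted p = 0.463) and for Jun -0.56 (SE 0.35, limma adjusted p = 0.578). A call on LN511 without one on gelatin is therefore not shown to be a difference between coatings.

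Other genes of the immediate early class were set beside the members. Of 20 listed, 17 were tested. In 2i on LN511, 10.2% of all genes fell and 8.95% rose. Of the 17, 8 fell there and none rose, with a median difference of -0.83. The 8 were Zfp36, Myc, Ccn1, Mcl1, Trib1, Klf6, Dusp1 and Fosl2. Fosl2 reached 1 FPKM in the LN511 Std libraries alone (1.36 and 1.79 FPKM), so it passed the filter through the group where it was high. Zfp36, which encodes a protein that speeds mRNA decay, had 1.51 and 1.66 FPKM in LN511 2i, against 14.1 and 12.1 FPKM in LN511 Std (log2 -2.45, SE 0.25, limma adjusted p = 0.00131). The growth regulator Myc had 4.54 and 7.07 FPKM in LN511 2i, against 38.6 and 40.8 FPKM in LN511 Std (log2 -2.61, SE 0.32, limma adjusted p = 0.00284). Ccn1, a secreted matrix protein, had 43 and 44 FPKM in LN511 2i, against 77.7 and 78.4 FPKM in LN511 Std (log2 -0.83, SE 0.11, limma adjusted p = 0.00351). Those 3 calls held when any 1 library was left out. The count of 8 fell to 3 without LN511 Std replicate 1 and 5 without LN511 Std replicate 2.

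Among all genes tested, 7.52% fell and 8.58% rose in 2i on gelatin. There 4 of the 17 fell and 3 rose, with a median of -0.18. Those that fell were Mcl1, Zfp36, Myc and Maff, and those that rose were Ccn1, Ier5l and Gadd45b. Mcl1, a survival factor of the BCL2 family, had 107 and 119.9 FPKM in gelatin 2i, against 224.6 and 222.4 FPKM in gelatin Std (log2 -0.97, SE 0.08, limma adjusted p = 0.000895). Zfp36 had 3.21 and 2.12 FPKM in 2i, against 10.2 and 12.3 FPKM in Std (log2 -1.75, SE 0.25, limma adjusted p = 0.00573), and Myc also fell (log2 -2.15, SE 0.32, limma adjusted p = 0.00698). Ccn1 instead rose, to 16.9 and 16.1 FPKM in gelatin 2i, against 11.3 and 10.4 FPKM in gelatin Std (log2 0.56, SE 0.11, limma adjusted p = 0.0172). That call was lost without gelatin 2i replicate 1 (0.0789) or 2 (0.0615) or gelatin Std replicate 2 (0.0688), and without gelatin 2i replicate 2 or gelatin Std replicate 2 none of the 3 rises passed; without gelatin 2i replicate 1 there was 1. Ccn1 was higher on LN511 than on gelatin in Std (log2 2.74, SE 0.11, limma adjusted p = 0.000254) and in 2i (log2 1.35, SE 0.11, limma adjusted p = 0.00624, but 0.0611 without gelatin 2i replicate 2). Ccn2 (log2 1.26, SE 0.20, limma adjusted p = 0.0306) and Klf6 (log2 1.39, SE 0.25, limma adjusted p = 0.0455) also passed in Std, 3 genes of the 17 in all. Among all genes tested, 2.55% passed in that comparison. The Ccn2 call was lost when any 1 of the 8 libraries was left out (0.0506 to 0.123), and the Klf6 call when any 1 library other than those of LN511 2i was (0.0829 to 0.203). Egr3, Egr4 and Fosb were below the filter.

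**Figure D4:**
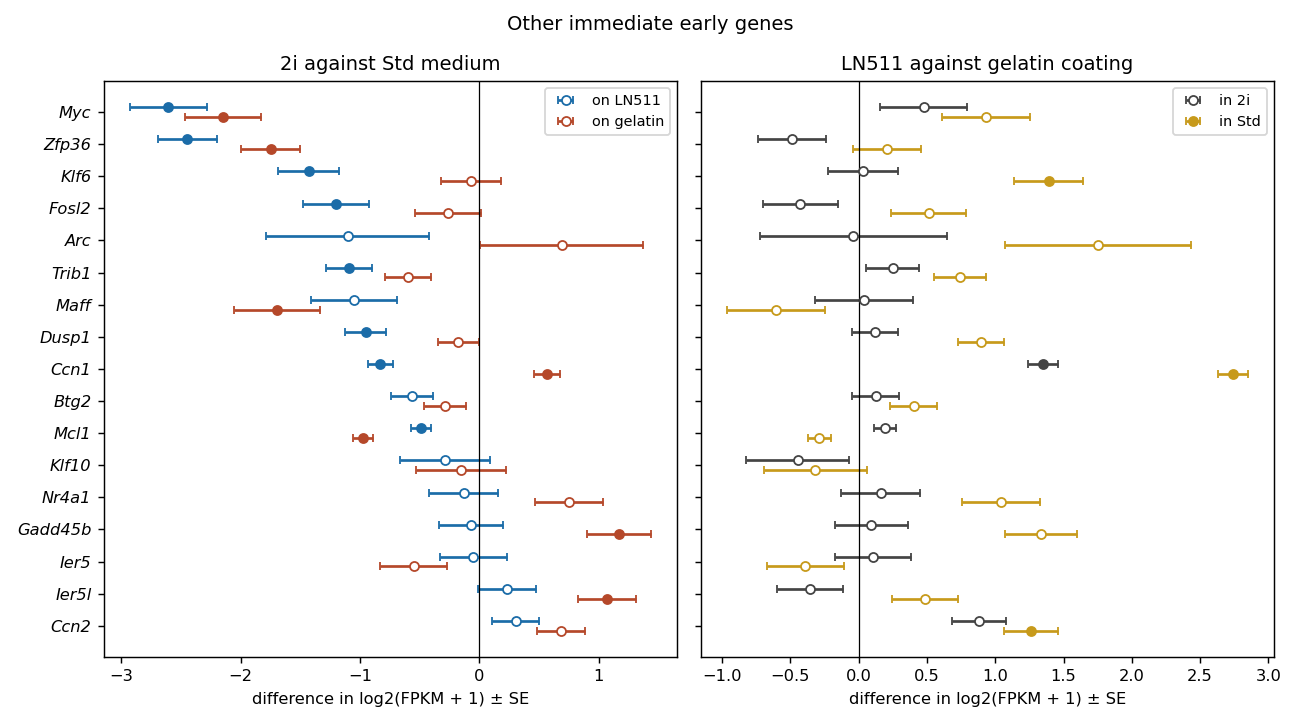
Differences in log2(FPKM + 1) with SE (x axis) for the 17 tested genes of the wider immediate early list (rows), for 2i against Std on each coating (left) and LN511 against gelatin in each medium (right); filled points passed limma at an adjusted p under 0.05 and open points did not. Myc and Zfp36 lie left of 0 on both coatings, while Ccn1 is left of 0 on LN511 and right of 0 on gelatin.

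The genes that feed into and out of the ERK pathway were set beside the members. Among 10 tested ERK feedback and ETS genes of 12 listed, 4 fell and 1 rose in 2i on each coating. Of all genes tested, 19.2% passed on LN511 and 16.1% on gelatin. On LN511 Dusp6, Spry4, Spred1 and Phlda1 fell and Ets2 rose; on gelatin Etv5 took the place of Phlda1. Without LN511 Std replicate 2, 2 fell and none rose on LN511, and without any 1 gelatin library none rose on gelatin. Dusp6, a phosphatase that inactivates ERK, had 2.78 and 1.52 FPKM in LN511 2i, against 68.8 and 74.1 FPKM in LN511 Std (log2 -4.55, SE 0.22, limma adjusted p = 0.000111). Of the genes that carry the signal itself, 16 of 18 were tested, and 2 rose and 1 fell in 2i on LN511. That is near the share of all genes that passed there, 19.2%. Map2k1 and Grb2 rose, and neither passed without either LN511 Std library. The gene that fell was Shc1, an adaptor that links receptors to RAS, at 36.1 and 38.9 FPKM in LN511 2i, against 67.4 and 66.6 FPKM in LN511 Std (log2 -0.82, SE 0.13, limma adjusted p = 0.00689).

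For the next lists too, the share of all genes that passed was 19.2% on LN511 and 16.1% on gelatin. Among 11 SRF, TCF and CREB regulators, all tested, 1 rose in 2i on LN511 and none passed by limma on gelatin. It was Nab2, a corepressor of EGR proteins, at 12.1 and 8.57 FPKM in LN511 2i, against 2.17 and 0 FPKM in LN511 Std. The call (limma adjusted p = 0.0183) includes that 0 and was lost without LN511 2i replicate 1 (0.086) or 2 (0.0601). Of 8 tested AP-1 partner genes, 2 rose in 2i on LN511 (Nfe2l2 and Jdp2), and on gelatin 1 rose (Atf2) and 2 fell (Cebpb and Atf4). Of 7 tested JNK and p38 kinases 1 rose on LN511 (Map2k6) and none passed on gelatin. Leaving out 1 library left 0 partner genes without either LN511 Std library and 0 kinases without LN511 2i replicate 1 or either LN511 Std library on LN511. It left 0 partner genes on gelatin without gelatin 2i replicate 2 or either gelatin Std library.

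Heat shock genes, which respond to stress, went both ways: the median difference of the 7 tested in 2i was -0.26 on LN511 and 0.19 on gelatin. Hspb1 rose in 2i on both coatings, to 601.3 and 641.8 FPKM in LN511 2i, against 322.5 and 340.1 FPKM in LN511 Std (log2 0.91, SE 0.09, limma adjusted p = 0.00109), and to 482 and 498.5 FPKM in gelatin 2i, against 195 and 167.4 FPKM in gelatin Std (log2 1.43, SE 0.09, limma adjusted p = 0.00024). Hspe1 fell on LN511 (log2 -0.23, SE 0.06, limma adjusted p = 0.0471), a call lost when any 1 of the 8 libraries was left out. Hsp90aa1 rose on gelatin (log2 0.19, SE 0.04, limma adjusted p = 0.0274), a call lost without any 1 library of LN511 Std, gelatin 2i or gelatin Std. The part of heat shock responses in the members' levels was not tested.

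The genes whose profile over the 8 libraries was nearest to that of Egr1, by the root mean square distance between standardized log2(FPKM + 1) values among 6998 genes with a group mean of 5 FPKM or more, were Nup85, Rassf3, Dbf4, Kcnk1 and Hspa14, at distances of 0.07 to 0.09. Kcnk1, a potassium channel gene, had 2.23 and 2.18 FPKM in LN511 2i, against 18.1 and 18.7 FPKM in LN511 Std. On gelatin it had 2.11 and 2.07 FPKM in 2i, against 9.59 and 9 FPKM in Std. As for Egr1, LN511 Std was highest and gelatin Std next. The 2i levels of Egr1 were too low to compare their order with that of Kcnk1. Nup85, a nuclear pore gene, also had LN511 Std highest and gelatin Std next, with 2i groups that overlapped, over a narrower range of 64.1 to 89.1 FPKM. Nearest to Fos were Clu, Gng3, Gpcpd1, Rpn1 and Gm3636 (0.18 to 0.25), and nearest to Jun were Tent5b, Gsn, Commd9, Tor2a and Dusp3 (0.12 to 0.25).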

How the data were processed

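Bulk RNA-seq of 8 libraries was deposited as FPKM for genes and for transcripts. The authors made the FPKM values, and the submitters' processing notes name TopHat2 2.1.1, Cufflinks 2.1.1 and mm10. The sources used here do not say what each tool did, nor the annotation, strandedness or scaling. A gene's value was the sum of its RefSeq transcript rows (31786 of 32688 transcripts matched a symbol, GRCm38.p6). Of values at 1 FPKM or more there, 47.2% are 0 in the gene table. Another 21844 assembled rows were left out, and 0 sample columns were unused. Junb alone came from the gene table.

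Genes with 1 FPKM or more in 2 libraries (11244) were kept, and 836 with 1 replicate at 0 and the other at 5 or more were set aside, leaving 10408. Limma 3.58.1 (R 4.3.3, eBayes with trend) was run on log2(FPKM + 1) with 1 mean per group, 4 residual degrees of freedom and Benjamini-Hochberg adjustment at 0.05, after a check on simulated data. Depth was estimated from the median of FPKM times length in kilobases between 0.3 and 0.5, for transcripts of 1500 to 5000 bases. Intervals are 95%. All 10 members are described; from each list up to 4 called genes by adjusted p could be named, and the 5 nearest profiles for Egr1, Fos and Jun. Kcnk1 and Nup85 were given values after theirs were seen. Members and lists were chosen with earlier results of these data known. The alternatives were another pseudocount, filters, zero rules, scalings, the gene table, fewer libraries, the replicate block and leaving out each library.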

Additional observations from a re-analysis of the deposited data

Results flagged for a closer look

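Ccn1, of the wider immediate early list, had a medium effect that differed between the coatings. The interaction was -1.39 on the log2(FPKM + 1) scale (SE 0.15, limma adjusted p = 0.0222), with 2i lower than Std on LN511 and higher than Std on gelatin, in both libraries of each group. The call was lost with the replicate block (0.0657) and without any 1 of the 8 libraries (0.0547 to 0.116). No cause was tested.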

How the results depend on the processing

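The fit as reported called 1676 genes for 2i against Std on gelatin, 1998 on LN511, 265 for LN511 against gelatin in Std, 68 in 2i and 71 for the interaction. The filter, pseudocount, scaling and zero rules left the count of genes called within 1.5 times the main count, except that 42 genes passed for LN511 against gelatin in 2i with no gene set aside for zeros, and 2 there and 19 in the interaction with whole groups at 0 also set aside. The deposited gene table left 3139 genes to test. It gave 598 genes for 2i against Std on gelatin, 656 on LN511, 265 for the coatings in 2i and 448 for the interaction. With only the 4 libraries compared, 1113, 1124, 6 and 1 genes passed for the medium on gelatin, the medium on LN511, the coatings in Std and the coatings in 2i. Leaving out 1 library gave 744 to 1630, 964 to 1758, 10 to 239 and 15 to 41 genes in the same order, and 3 to 35 in the interaction.

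The replicate numbers did not pair the samples (correlations of deviations from -0.02 to 0.02). A replicate block gave 113 genes for the coatings in Std, 23 in 2i and 11 for the interaction; Fos (limma adjusted p = 0.057) and Jun (0.0509) then missed on LN511. With only the 4 libraries compared Fos (0.0792), Jun (0.0595) and Ier3 (0.107) missed on LN511, and Ier3 missed there with no filter (0.0535), no gene set aside for zeros (0.0536) or equal medians (0.0536).

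Directions turned for small differences. With equal medians, LN511 against gelatin in 2i was 0.0095 for Fos and 0.052 for Ier2, and the interaction of Jund was 0.032. With 1 library left out, Atf3 ranged from -0.40 to 0.25 for 2i on gelatin, -0.31 to 0.81 on LN511, -0.014 to 1.10 for the coatings in 2i and -0.23 to 0.89 in the interaction. Ier2 ranged from -0.032 to 0.081 for 2i on LN511 and -0.058 to 0.055 for the coatings in 2i, Fos from -0.19 to 0.10 for the coatings in 2i, and Ier3 from -0.13 to 0.45 in the interaction. The gene table, which lists many expressed genes at 0, gave 0.17 for Egr1 in 2i on gelatin, -7.51 for Hspb1 there and between coatings in Std, and on LN511 1.34 for Spry4, -5.65 for Map2k1 and 0 for Mcl1. The cause was not tested otherwise. The low depth limits Fos, Atf3, Egr2 and Fosl1 most.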
